A study of Mus musculus with 27 samples.

Results

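Iron handling in the ileal epithelium was followed through 9 genes that cover apical import (*Cybrd1*, *Slc11a2*, *Slc46a1*), basolateral export (*Slc40a1*, *Heph*), storage (*Fth1*, *Ftl1*), uptake from transferrin (*Tfrc*) and oxygen and iron sensing (*Epas1*). The members were chosen by name, with earlier results of these data known, and matched by Ensembl identifier. All 9 were found among the 46078 genes of the count tables. RNA-Seq was performed on scrapings of distal ileal epithelium from 27 male C57BL/6 mice with an age label of postnatal day 56. Every mouse was gavaged at 4 d intervals for 28 d, 3 with sesame oil vehicle and 3 at each of 8 doses of TCDD, which were 0.01 and 0.03, then 0.1 and 0.3, then 1 and 3, and last 10 and 30 µg/kg. TCDD is a persistent agonist of the aryl hydrocarbon receptor (AhR), a ligand-activated transcription factor. No genetic alteration is given for any group, and a scraping also holds cells other than enterocytes, so fewer cells of a type and less RNA per cell cannot be told apart.

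Dietary iron enters the enterocyte through the apical membrane, is held in ferritin or passed to the blood through ferroportin, and is oxidized by hephaestin as it leaves. The hormone hepcidin removes ferroportin protein from the membrane, and the transcription factor HIF-2α raises transcription of several transporters when iron or oxygen is low. Iron regulatory proteins bind a hairpin in messenger RNA, the iron responsive element. Bound in the 5′ UTR it blocks translation, and bound in the 3′ UTR of the transferrin receptor message it protects the message from decay, so a count of messenger RNA does not report protein.

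A hairpin of this kind, a bulged C, 5 paired bases, the loop CAGTGN (with N not G) and the matching 5 bases, was searched for in the sense strand of UTRs of GENCODE M21 coding transcripts, with G-T pairs allowed. It was found in 4 of the 9 genes, against 0.582% of 21142 protein-coding genes with a UTR long enough to hold it. The pattern describes an element already known from iron genes such as the transferrin receptor, so this count is no test of enrichment. The 7 sites are shown because they divide the members into messages with the element before and after the coding sequence. Capitals mark the 6-base loop.
Slc40a1 5′ UTR: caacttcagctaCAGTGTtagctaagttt
Fth1 5′ UTR: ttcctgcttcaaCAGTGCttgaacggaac
Ftl1 5′ UTR: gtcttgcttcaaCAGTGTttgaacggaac
Tfrc 3′ UTR, site A: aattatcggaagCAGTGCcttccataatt
Tfrc 3′ UTR, site B: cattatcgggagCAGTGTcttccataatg
Tfrc 3′ UTR, site C: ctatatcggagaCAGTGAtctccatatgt
Tfrc 3′ UTR, site D: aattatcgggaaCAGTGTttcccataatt

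On GRCm38 the site of *Slc40a1* lies at chr1:45925465-45925493 on the - strand, that of *Fth1* at chr19:9982732-9982760 on the + strand and that of *Ftl1* at chr7:45459779-45459807 on the - strand. The sites of *Tfrc*, on the + strand in order from A to D, lie at chr16:32631219-32631247, chr16:32631598-32631626, chr16:32631663-32631691 and chr16:32631710-32631738. A match to these letters is a description of the sequence. Hairpins with an extra bulge in the upper stem are missed by the search, so the lack of a match in the other 5 genes says only that this exact form is not in their annotated UTRs.

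Gene counts totalled 12.26 to 17.14 M per mouse, and 16741 genes passed edgeR's filter on low counts, all 9 iron genes among them. Levels are given as CPM, the count divided by the TMM-adjusted library size in M reads. A gene was called at a Benjamini-Hochberg adjusted p of at most 0.05 in edgeR's quasi-likelihood test together with a change of 1.5-fold or more, up or down. *Cyp1a1*, the classic AhR target, was at 0.138 CPM or lower in 2 vehicle mice and at 0.211 CPM in the other, and at 1062, 1881 and 2279 CPM in the 3 mice at 30 µg/kg. Markers of the ileal enterocyte, 4 genes summed, stood at 3448 to 4753 CPM in vehicle mice, and 6 markers of the proximal gut at 219.8 to 263 CPM. Libraries of 16 mice (vehicle to 0.3 µg/kg and replicate 1 at 1 µg/kg) carried a library index used for the first time in mouse order. The other 11 carried the same indexes again. Between doses of different uses, an effect of the index use cannot be told apart from one of dose. Only the 1 µg/kg group holds both uses. A score over 13 circadian clock genes lay between -1.05 and -0.90 in vehicle mice and between 1.15 and 1.30 at 30 µg/kg. Replicate 1 at 30 µg/kg stood apart from replicates 2 and 3, with 8 enterocyte markers summing to 14350 CPM against 29900 and 27920 CPM, and 8 smooth muscle and stromal markers to 390.8 CPM against 103.6 and 75.06 CPM.

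Per kb of exon, the vehicle levels were highest for the storage genes and lowest for the apical importers. *Ftl1*, the ferritin light chain, was highest at 119.5 ± 6.29 CPM per kb (SD, n = 3), followed by *Fth1*, the ferritin heavy chain with the ferroxidase site, at 95.1 ± 4.16 CPM per kb. *Heph* stood at 60.6 ± 2.48 CPM per kb. *Tfrc* (22.2 ± 2.73), *Slc40a1* (17.9 ± 3.22) and *Epas1* (14.9 ± 1.40 CPM per kb) formed a middle group in which each overlapped its neighbour over the 3 mice. The apical importers were lowest, with *Slc11a2* at 9.94 ± 1.61 CPM per kb, *Slc46a1* at 3.56 ± 0.35 CPM per kb and *Cybrd1* at 0.57 ± 0.19 CPM per kb. Measured against the longest transcript in place of all exons, *Slc40a1* (41.0 ± 7.38 CPM per kb) came before *Tfrc* (28.1 ± 3.45 CPM per kb). Of the 50-base words of *Ftl1*'s longest coding transcript, 90.6% also occur in transcripts of 17 other annotated genes, and reads aligned to more than 1 place were left out by the counting, so the true *Ftl1* level may be higher than shown. The share was 4.01% for *Fth1*, 2.1% for *Cybrd1* and 0% for the other 6 genes.

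**Figure D1:**
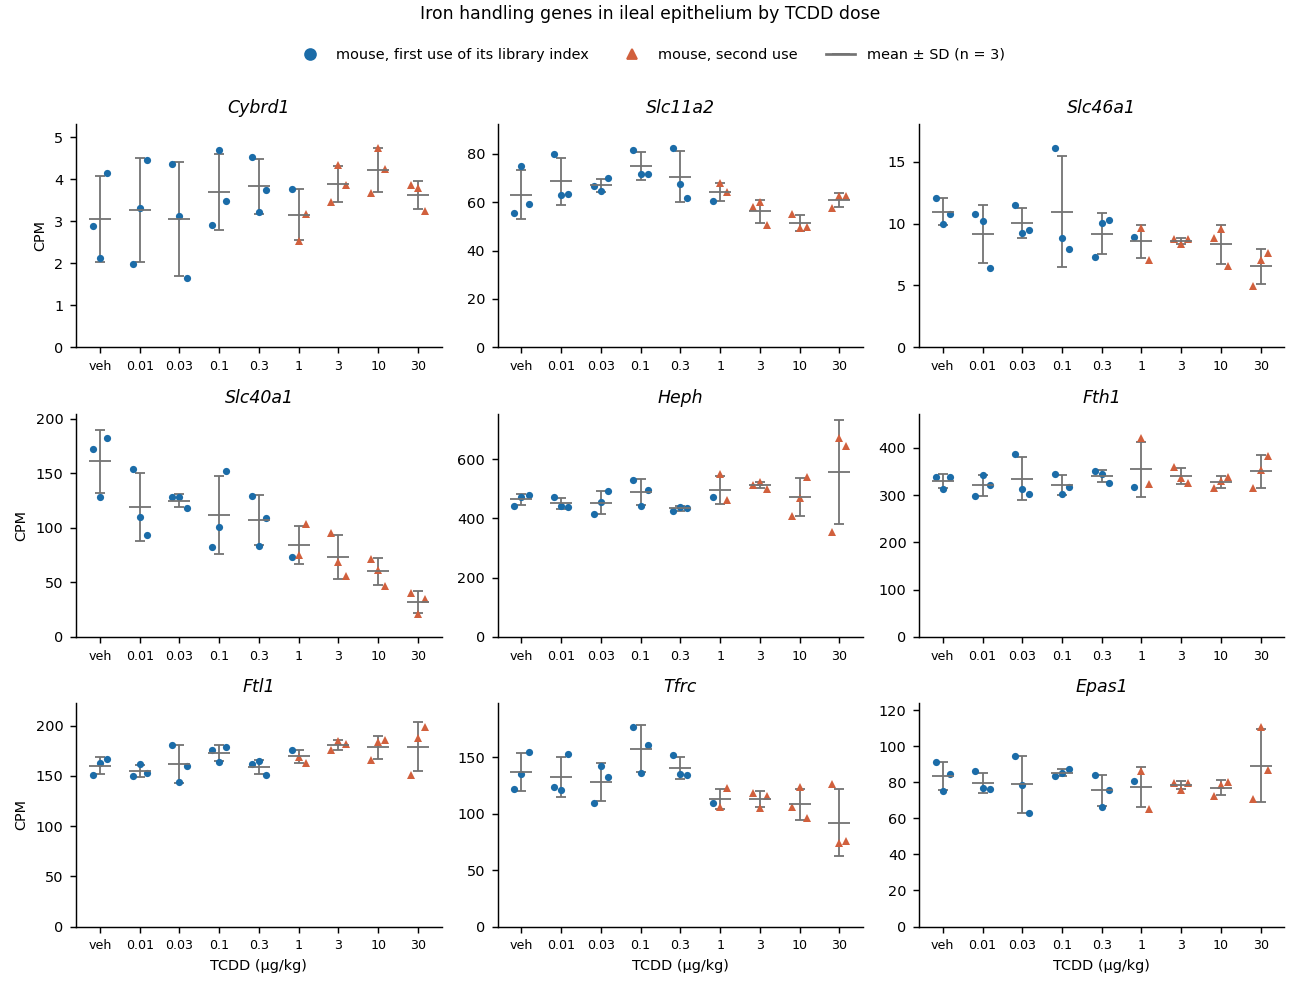
Level of each iron handling gene (y axis, CPM, from 0) by TCDD dose (x axis, µg/kg; veh, vehicle). Each point is 1 mouse, circles for the first and triangles for the repeated use of its library index, and bars are the mean ± SD (n = 3). *Slc40a1* steps down from a vehicle mean of 161 CPM to 31.9 CPM at 30 µg/kg, while *Fth1* stays between 298 and 422 CPM in all 27 mice.

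The exporter gene fell with dose. *Slc40a1* (ENSMUSG00000025993, chr1:45908068-45926523, - strand) encodes ferroportin, the iron exporter of the basolateral membrane. In vehicle mice it stood at 172, 128 and 183 CPM. At 30 µg/kg it stood at 39.8, 20.6 and 35.2 CPM, and the highest of these 3 mice was below the lowest vehicle mouse. This was a 5.05-fold repression (log2 fold change -2.34, SE 0.27, 95% interval -2.89 to -1.79, adjusted p = 3.65e-06 in edgeR's quasi-likelihood test). With 3 mice against 3, the exact two-sided permutation test gave p = 0.1, the smallest it allows.

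The means of *Slc40a1* were lower at each step from 1 to 30 µg/kg, although the mice at 1, 3 and 10 µg/kg overlapped between neighbouring doses. At 1 µg/kg the mice stood at 73.1, 75.0 and 104 CPM. At 3 µg/kg they stood at 95.2, 68.9 and 55.6 CPM, and at 10 µg/kg at 71.8, 61.6 and 46.8 CPM. All 12 mice at 1 µg/kg and above lay below the lowest vehicle mouse, while 7 of the 12 mice at 0.01 to 0.3 µg/kg did, their range being 82.7 to 154 CPM. The 1.92-fold repression at 1 µg/kg (log2 fold change -0.94, SE 0.25, adjusted p = 0.0761, edgeR) was not called. *Slc40a1* was called at 3 µg/kg (log2 fold change -1.14, SE 0.25, adjusted p = 0.0185, edgeR). At 10 µg/kg it was repressed 2.68-fold (log2 fold change -1.42, SE 0.26, adjusted p = 0.00195, edgeR). With the use of the index as a covariate the log2 fold changes were larger, -1.43 at 3 µg/kg (adjusted p = 0.28, edgeR) and -1.71 at 10 µg/kg (adjusted p = 0.139, edgeR), but no longer called. At 30 µg/kg the value was -2.63 and still called (adjusted p = 0.00558, edgeR). That covariate is estimated only within the 1 µg/kg group, from the mouse at 73.1 CPM against those at 75.0 and 104 CPM. It therefore cannot separate index use from dose at the other doses. With the clock score the log2 fold changes shrank to -0.22 at 3 µg/kg (adjusted p = 0.993, edgeR) and -0.41 at 10 µg/kg (adjusted p = 0.921, edgeR) and were not called. The call at 3 µg/kg was also lost without vehicle replicate 1 or 3 or without replicate 2 or 3 of that dose (adjusted p = 0.0813 to 0.151, edgeR). These comparisons share the vehicle mice. DESeq2 called *Slc40a1* at 1 µg/kg (log2 fold change -0.94, adjusted p = 0.0116), as did the fit of those 6 mice alone (-0.94, adjusted p = 0.0471, edgeR).

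Comparisons within a single use of the index were also made. Between 30 and 3 µg/kg, doses that share the use of the index, *Slc40a1* differed 2.30-fold (log2 fold change -1.20, SE 0.26, adjusted p = 0.021, edgeR) and was the only called iron gene of the 9, where 0.89% of all genes were called. That call did not survive leaving out replicate 1 or 2 at 3 µg/kg or replicate 2 or 3 at 30 µg/kg (log2 fold change -1.27 to -0.96, adjusted p = 0.0536 to 0.157, edgeR). It was also lost with the clock score as a covariate (-0.99, adjusted p = 0.0522, edgeR) and in the fit of the 6 mice alone (-1.21, adjusted p = 0.201, edgeR). Across the 11 mice with the repeated index use (1 to 30 µg/kg), the level changed by -0.49 on the log2 scale per dose step (SE 0.10, adjusted p = 0.0222, edgeR), again the only iron gene called, against 1.44% of all genes. Within the 16 mice with the first use (vehicle to 1 µg/kg) the slope was -0.15 per step (SE 0.04, unadjusted p = 0.00161, adjusted p = 0.118, edgeR), and 0 of the 9 genes passed, against 0.144% of all genes. At 1 µg/kg, where both uses meet, the mouse with the first use stood at 73.1 CPM and those with the repeated use at 75.0 and 104 CPM.

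Dose and the clock score moved together, and with the score as a covariate *Slc40a1* at 30 µg/kg had a log2 fold change of -1.21 (adjusted p = 0.386, edgeR), which is no longer called. In replicate 3 at 0.01 µg/kg the score was 0.61 against -0.92 and -0.83 in replicates 1 and 2, and *Slc40a1* stood at 93.8 CPM against 154 and 110 CPM. The part of the clock in these values was not tested. Macrophages also use ferroportin. Their 8 markers summed to 59.4 to 69.3 CPM in vehicle mice and 54.7 to 78.8 CPM at 30 µg/kg, and 0 of 8 were called there (0 at an adjusted p of at most 0.05 in edgeR). Of the 8 general enterocyte markers 0 were called as well, at a dose where 9.4% of all genes tested were. The enterocyte sum spread widely there, from 14350 to 29900 CPM against 18220 to 19230 CPM in vehicle mice. Markers of other cell types were called at that dose. Of the 7 crypt proliferation markers 3 were called lower, where 3.98% of all genes were. Of the 4 ileal enterocyte markers 2 were called higher and 1 lower, and their sum was 4209 to 6536 CPM. Of the 8 lymphocyte and plasma cell markers 3 were called lower, and the sum was 294.3 to 477.8 CPM against 729.6 to 1037 CPM in vehicle mice. Of the 8 endothelial markers 1 was called higher and 1 lower (sum 40.7 to 72.3 CPM against 37.6 to 53.2 CPM), and of the 6 proximal markers 1 was called higher (sum 96.7 to 517 CPM). The part of these cells in the *Slc40a1* value was not tested. The mouse with the lowest enterocyte sum at 30 µg/kg, replicate 1, had the highest *Slc40a1* of its group, and without it the log2 fold change was -2.56 (adjusted p = 3.37e-06, edgeR).

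**Figure D2:**
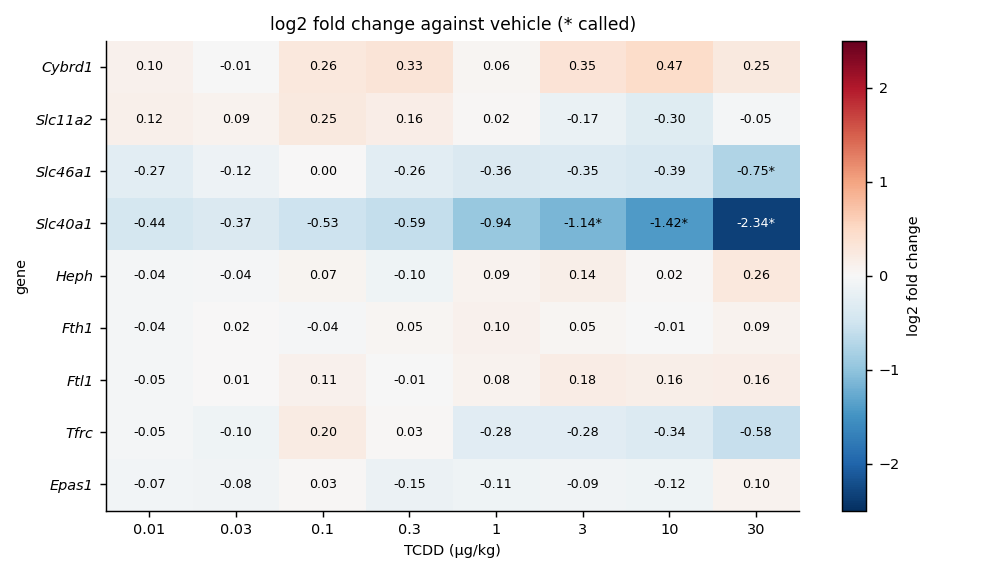
Log2 fold change against vehicle of each iron gene (rows) at each TCDD dose (columns, µg/kg), on a color scale from -2.5 (blue) to 2.5 (red). Asterisks mark called genes, which are *Slc40a1* at 3, 10 and 30 µg/kg (-1.14, -1.42 and -2.34) and *Slc46a1* at 30 µg/kg (-0.75).

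Hephaestin, the multicopper oxidase that acts beside ferroportin, was not called at any dose. *Heph* (ENSMUSG00000031209, chrX:96455359-96574485, + strand) stood at 443, 472 and 479 CPM in vehicle mice and at 354, 673 and 643 CPM at 30 µg/kg. Replicate 1 lay below all vehicle mice and replicates 2 and 3 above all of them. The log2 fold change was 0.26 (95% interval -0.05 to 0.57, adjusted p = 0.247, edgeR). Without replicate 1 it was 0.47 (adjusted p = 0.00126, edgeR), still under the fold limit. That was the largest of 6 fits with 1 mouse left out, which ran down to 0.10 (adjusted p up to 0.758, edgeR).

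Among the apical importers, 1 of 3 was called at 30 µg/kg, where 9.4% of all genes tested were. *Slc46a1* (ENSMUSG00000020829, chr11:78465697-78472059, + strand) encodes a proton-coupled folate transporter that was first described as a heme carrier. It stood at 12.1, 9.98 and 10.8 CPM in vehicle mice and at 4.94, 7.04 and 7.65 CPM at 30 µg/kg, with no overlap. The repression was 1.68-fold (log2 fold change -0.75, SE 0.24, adjusted p = 0.032, edgeR). It rested on 69 to 233 counts per mouse over the whole series, and leaving out vehicle replicate 1 or 3 or replicate 1 or 2 at 30 µg/kg, or fitting the 6 mice alone, ended the call (adjusted p = 0.0699 to 0.0977, edgeR). It was also lost with the index use as a covariate (-0.65, adjusted p = 0.484), and with the clock score the log2 fold change was 0.04 (adjusted p = 0.984, edgeR). All 12 mice at 1 to 30 µg/kg lay below the lowest vehicle mouse for this gene, as did 6 of the 12 at 0.01 to 0.3 µg/kg. The share of all genes with such a pattern was not computed. Over all 9 dose groups together *Slc46a1* did not pass (adjusted p = 0.36, edgeR's quasi-likelihood F-test). In replicate 3 at 0.01 µg/kg, the mouse with the high clock score, *Slc46a1* stood at 6.44 CPM against 10.8 and 10.2 CPM in the others.

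*Slc11a2* (ENSMUSG00000023030, chr15:100387898-100425072, - strand) encodes DMT1, the apical transporter of ferrous iron. Its vehicle levels were 55.6, 74.7 and 59.0 CPM. At 0.01 to 0.3 µg/kg the 12 mice ranged from 61.8 to 82.5 CPM (median 68.8), and at 1 µg/kg they stood at 60.4, 67.9 and 64.1 CPM. At 3 µg/kg the levels were 58.1, 59.9 and 50.7 CPM. At 10 µg/kg the mice stood at 55.0, 49.3 and 49.9 CPM, all below the vehicle mice, and at 30 µg/kg at 57.6, 62.5 and 62.4 CPM, inside the vehicle range. The log2 fold change was -0.30 at 10 µg/kg (95% interval -0.54 to -0.06, adjusted p = 0.17, edgeR) and -0.05 at 30 µg/kg (95% interval -0.29 to 0.18, adjusted p = 0.794, edgeR). *Cybrd1* (ENSMUSG00000027015, chr2:71117923-71142926, + strand) encodes the ferric reductase best known from the duodenal brush border. It was weakly expressed, at 1.66 to 4.75 CPM over all 27 mice, and its log2 fold change at 30 µg/kg of 0.25 had a 95% interval from -0.38 to 0.87. An exon of the opposite-strand gene *Gm5475* covers 6.33% of the *Slc11a2* exon bases, and whether the counting used strand is not stated.

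The transferrin receptor came close to the limits. *Tfrc* (ENSMUSG00000022797, chr16:32608920-32632794, + strand), which takes up transferrin-bound iron from the blood side and is high in dividing cells, stood at 122, 135 and 155 CPM in vehicle mice and at 126, 73.9 and 76.1 CPM at 30 µg/kg. Replicates 2 and 3 lay below all vehicle mice and replicate 1 among them. The log2 fold change was -0.58 (SE 0.16, adjusted p = 0.015, edgeR), a 1.49-fold repression just under the fold limit, and without replicate 1 it was -0.90 (adjusted p = 5.66e-05, edgeR). Over the 6 fits with 1 mouse left out it ran from -0.90 to -0.44 (adjusted p = 5.66e-05 to 0.113, edgeR), and 3 of them gave a call. Over 8 other alternatives it ran from -0.68 to -0.56 (adjusted p = 0.00243 to 0.5, edgeR or DESeq2), and 2 gave a call. At lower doses *Tfrc* ranged from 110 to 177 CPM in the 12 mice at 0.01 to 0.3 µg/kg (median 136). From 1 to 30 µg/kg, 9 of 12 mice lay below the lowest vehicle mouse. Summed over 7 markers of crypt proliferation, the same 3 mice stood at 479.2, 223.6 and 278.6 CPM against 427.9 to 605.4 CPM in vehicle mice. Of these 7 markers 3 were called lower, where 3.98% of all genes tested were. The part of crypt cells in the *Tfrc* value was not tested.

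Neither ferritin gene was called at any dose. *Fth1* (ENSMUSG00000024661, chr19:9980598-9985098, + strand) stood at 339, 313 and 338 CPM in vehicle mice and at 314, 353 and 384 CPM at 30 µg/kg, with overlapping ranges. Over all 27 mice its median was 329 CPM. Its log2 fold change was 0.09 (95% interval -0.13 to 0.30, adjusted p = 0.62, edgeR). *Ftl1* (ENSMUSG00000050708, chr7:45457944-45459884, - strand) stood at 151, 163 and 167 CPM in vehicle mice and at 151, 188 and 198 CPM at 30 µg/kg. Its log2 fold change was 0.16 (95% interval -0.03 to 0.35, adjusted p = 0.232, edgeR). A microRNA gene, *Gm22133*, shares 8.13% of its exon bases. *Slc40a1* and the ferritin genes all have an annotated transcript with the hairpin before the coding sequence. Binding there blocks translation, so these message counts do not report what the hairpin does. The hairpin was found in 1 coding transcript of *Slc40a1*, 4 of *Fth1* and 1 of *Ftl1*. The counts are per gene and do not separate transcripts with and without it.

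*Epas1* (ENSMUSG00000024140, chr17:86753700-86833410, + strand) encodes HIF-2α. Its level was 91.0, 75.3 and 84.3 CPM in vehicle mice and 70.7, 110.5 and 86.5 CPM at 30 µg/kg, again lowest in replicate 1, and 63.1 to 110.5 CPM over all 27 mice. The log2 fold change was 0.10 (95% interval -0.19 to 0.38, adjusted p = 0.691, edgeR), and it turned to -0.05 with library size as the scaling.

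**Figure D3:**
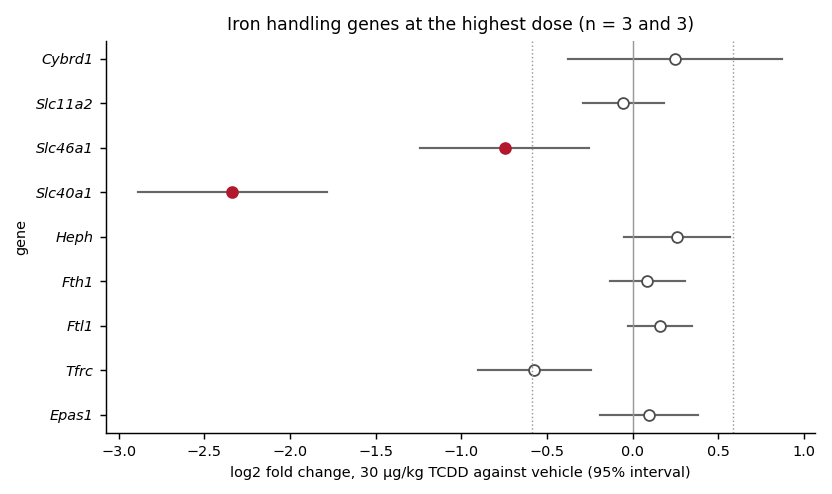
Log2 fold change at 30 µg/kg TCDD against vehicle (x axis) of each iron gene (y axis), with its 95% interval from edgeR (n = 3 and 3). Filled points are called, and dotted lines mark 1.5-fold. The interval of *Slc40a1*, from -2.89 to -1.79, lies apart from those of the other 8 genes.

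Counted over the 9 genes, 2 were called at 30 µg/kg, both lower, where 9.4% of all genes tested were called and 3.98% were called lower. Without the fold limit 3 of the 9 passed, against 17.8% of all genes. In 2 of the 9 the mice at 30 µg/kg did not overlap with vehicle, against 27.1% of all genes. At 1, 3 and 10 µg/kg that count was 2, 5 and 3 of the 9, against 20.5%, 24.5% and 23.2% of all genes. The median log2 fold change of the 9 was 0.09, beside 0.02 over all genes. At 10 µg/kg 1 of 9 was called (2.53% of all genes), at 3 µg/kg 1 of 9 (1.11% of all genes) and at 1 µg/kg 0 of 9 (0.591% of all genes; 1 of 9 at an unadjusted p of at most 0.05, 1 by DESeq2). At the 4 doses from 0.01 to 0.3 µg/kg, 0 of 9 were called by edgeR and 0% of all genes were (at an unadjusted p of at most 0.05, 0, 0, 2 and 1 of 9 in order of dose), and DESeq2 called 0 of the 9. Over all 9 dose groups together, 3 of the 9 differed, where 9.53% of all genes did. They were *Slc40a1* (adjusted p = 6.62e-05), *Tfrc* (0.0343) and *Slc11a2* (0.0366 in edgeR's quasi-likelihood F-test). Only *Slc40a1* remained when replicate 1 or 3 at 0.1 µg/kg, replicate 1 or 3 at 10 µg/kg or replicate 2 or 3 at 30 µg/kg was left out. With the total count as the only scaling, the median of all genes at 30 µg/kg moved to -0.11 and the share of calls that were higher went from 57.7% to 36.6%, and the same 2 iron genes were called along with *Tfrc* (log2 fold change -0.68, adjusted p = 0.014).

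The genes whose level followed *Slc40a1* most closely over the 27 mice were *Ddah1* (Pearson's r = 0.93 of log2 CPM), *Cd38* (0.93) and *Dmbt1* (0.92). The mice share the dose gradient and the change of index use, and r within groups was 0.74, 0.86 and 0.73. *Cd38*, an enzyme that degrades NAD, fell from 649, 501 and 728 CPM to 201, 98.3 and 145 CPM at 30 µg/kg, and *Dmbt1*, a secreted mucosal defence protein, from a mean of 3508 CPM to 786.3 CPM. For *Slc46a1* the closest were *Arid3a* (r = 0.80), *Atp8b1* (0.78) and *Elmo1* (0.77).

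The wider iron and heme network was described with 58 further genes, also chosen with earlier results of these data known, 53 of which passed the filter. Their calls were not repeated with the index use or the clock score as a covariate, or with mice left out. At 30 µg/kg 5 were called higher and 2 lower, 7 of 53 where 9.4% of all genes were called, and the median log2 fold change of the 53 was -0.03. At 1, 3 and 10 µg/kg 2, 3 and 3 of the 53 were called higher and 0 lower, where 0.591%, 1.11% and 2.53% of all genes were called. Of the other import genes, *Steap2*, a metalloreductase, stood at 16.2, 12.6 and 18.1 CPM in vehicle mice and 10.7, 7.27 and 6.92 CPM at 30 µg/kg (log2 fold change -0.91, adjusted p = 0.000554, edgeR). Its relative *Steap1* was lower too (-2.17, adjusted p = 0.00389, edgeR) at 2.06 CPM or less in either group mean. *Mcoln1*, an endolysosomal cation channel, was higher (0.63, adjusted p = 0.0018, edgeR). *Flvcr1*, a heme exporter, stood at 42.1, 62.6 and 44.6 CPM in vehicle mice and 51.6, 136 and 89.7 CPM at 30 µg/kg (log2 fold change 0.89, adjusted p = 0.0114, edgeR).

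Inside the cell, *Slc25a37* (mitoferrin 1), which carries iron into mitochondria, was higher in every mouse at 30 µg/kg than in any vehicle mouse. It stood at 153, 197 and 160 CPM in vehicle mice and at 336, 382 and 317 CPM at 30 µg/kg, a 2.03-fold induction (adjusted p = 1.49e-05, edgeR), and was also called at 1, 3 and 10 µg/kg. *Ncoa4*, the receptor that delivers ferritin to the lysosome, was induced 1.59-fold (adjusted p = 0.00955, edgeR), although replicate 1, at 16.1 CPM, lay among the vehicle mice at 13.0, 17.5 and 16.1 CPM. *Hif3a*, a HIF α subunit without the strong activation domain of its relatives, rose 5.50-fold at 30 µg/kg, to 14.2 ± 2.63 CPM against 2.57 ± 0.51 CPM with vehicle (SD, n = 3, adjusted p = 3.35e-06, edgeR). In replicate 3 at 0.01 µg/kg, the mouse with the high clock score, *Slc25a37* stood at 253 CPM against 185 and 195 CPM in replicates 1 and 2. In the same mouse *Hif3a* stood at 4.81 CPM against 2.24 and 2.60 CPM, and *Ncoa4* at 17.6 CPM against 15.1 and 17.7 CPM. The part of the clock in these 3 genes was not tested. Of the 8 genes of heme synthesis 0 were called at 30 µg/kg (2 at an adjusted p of at most 0.05 in edgeR), of 4 of heme breakdown 0, and of the 5 tested genes of the hepcidin axis 0. The share over all genes was 9.4%. *Hamp*, which encodes hepcidin, had at most 7 counts in any mouse. Hepcidin is a hormone, so these ileal counts do not report how much of it reached the epithelium.

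**Figure D4:**
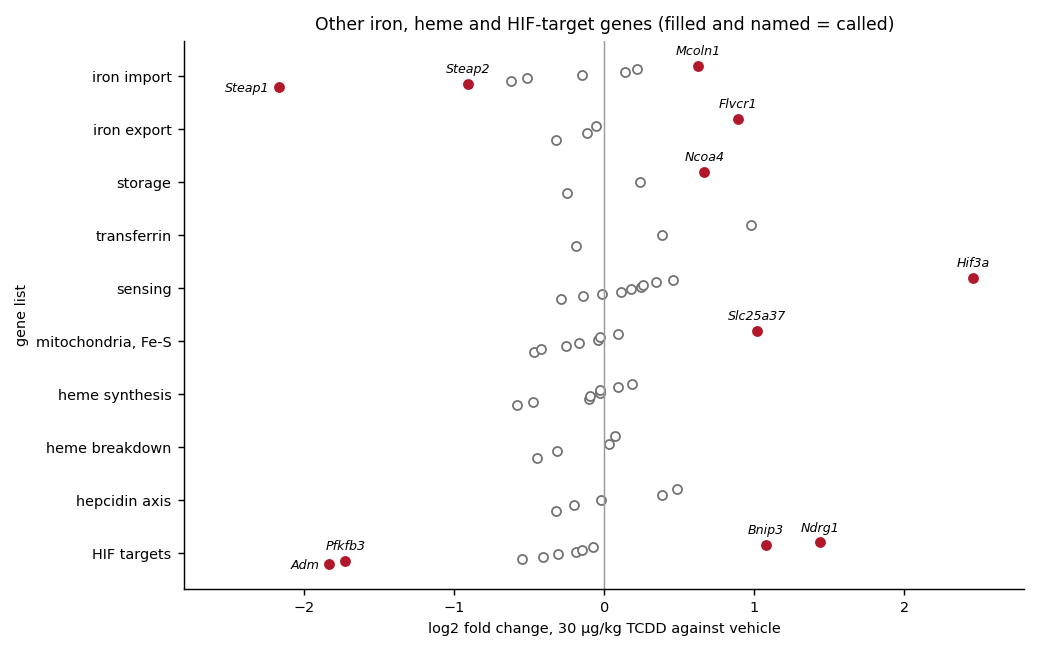
Log2 fold change at 30 µg/kg TCDD against vehicle (x axis) of the tested genes of each iron, heme and HIF-target list (y axis), 1 point per gene. Filled and named points are called, with *Hif3a* (2.46) farthest to the right and *Steap1* (-2.17) farthest to the left.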

How the data were processed

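Ileal libraries were prepared from total RNA with the Ovation Mouse RNA-Seq System. Per the labels, the authors checked reads with FastQC 0.11.3, trimmed them with Trimmomatic 0.33, aligned them to GRCm38 with TopHat2 2.1.0 and deposited unnormalized counts for each Ensembl gene (HTSeq 0.6.1). The counting options are not given in the sources used here. Between 44.5% and 49.5% of uniquely aligned reads matched no feature, and such rows were left out. Gene names and coordinates came from GENCODE M21. Counts were fitted over 27 mice and 9 groups with edgeR 4.0.16 in R 4.3.3 (TMM, filterByExpr with a minimum count of 10, quasi-likelihood test), after testing on simulated data. Standard errors were computed from the estimate and its F statistic. Permutation tests were exact and two-sided. The alternatives were DESeq2 1.42.0, other scalings and filters, covariates, no fold limit and leaving out mice. They were read for the 9 iron genes, not for single genes of the further lists. The study's methods say that animals shared cages, so mice of a dose may be cage mates. No label names the cage, mice were treated as independent, and cage and dose cannot be told apart. The 9 genes and all gene lists were chosen with earlier results of these data known. Named genes are the 9, up to 4 called genes of each further iron, heme or HIF-target list, and for each called member the 3 genes with the highest r. Python 3.11.15 was used for tables and figures.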

Additional observations from a re-analysis of the deposited data

How the results depend on the processing

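The count of iron genes called at 30 µg/kg went from 2 to 1 with the use of the index as a covariate and in the fit of the 6 mice alone, and to 0 with the clock score as a covariate. At 10 and 3 µg/kg the 1 called gene, *Slc40a1*, was lost (0) with either covariate, its log2 fold change growing to -1.71 and -1.43 with the index use and shrinking to -0.41 and -0.22 with the clock score. With either the count that differed among the 9 groups went from 3 to 0. Neither covariate can be separated from dose in most groups. At 1 µg/kg, 1 gene in place of 0 was called by DESeq2, without the filter on low counts and in the fit of the 6 mice alone. Between 30 and 3 µg/kg the call was lost (0) with the clock score (log2 fold change -0.99) and in the fit of the 6 mice alone (-1.21), against -1.20 as reported. Leaving out each mouse in turn gave counts of 1 to 3 at 30 µg/kg, 1 at 10 µg/kg, 0 to 1 at 3 µg/kg, 0 at 1 µg/kg and at 0.01 to 0.3 µg/kg, 0 to 2 between 30 and 3 µg/kg and 1 to 4 among the 9 groups. A group reduced to 2 mice shares the estimate of spread with the others. The call of *Slc40a1* at 3 µg/kg was lost without vehicle replicate 1 or 3 or replicate 2 or 3 of that dose (log2 fold change -1.10 to -0.97). With the log10 of the dose in place of its rank, the trend over the 11 mice called the same 1 gene. The cause of these changes was not tested.

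Some log2 fold changes at 30 µg/kg that were not called changed sign. *Cybrd1* turned to -0.76 and *Slc11a2* to 0.31 with the clock score, *Fth1* to -0.0501 with library size only and -0.14 with the use of the index, and *Epas1* to -0.0481 with library size only, while leaving out single mice moved it from -0.089 (without replicate 2 at 30 µg/kg) to 0.2074, with -0.0025 without vehicle replicate 2. *Slc11a2*, from -0.14 to 0.0572 with single mice left out, changed sign without vehicle replicate 2. *Slc46a1*, which was called, turned to 0.0424 with the clock score. Of 181 recomputed log2 fold changes, 143 kept direction and side of the threshold. No paired analysis was possible because the replicate numbers only name the mice and the labels give none that groups share. Precision was limited by 3 mice a group, and for *Cybrd1* and *Slc46a1* also by low counts.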

Other observations

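A list of 10 genes known as targets of the hypoxia-inducible factors was read beside *Epas1*, and 2 were called higher and 2 lower at 30 µg/kg TCDD, where 9.4% of all genes were called, with a median log2 fold change of -0.25. At 10 µg/kg, where 2.53% of all genes were called, 0 of the 10 were (0 at an adjusted p of at most 0.05 in edgeR). Calls in this list were not repeated with the index use or the clock score as a covariate, or with mice left out. *Ndrg1*, a stress-response gene, stood at 62.7, 59.2 and 55.2 CPM in vehicle mice and 92.4, 196 and 192 CPM at 30 µg/kg (log2 fold change 1.44, adjusted p = 0.000342, edgeR). *Bnip3*, a mitophagy receptor, was induced 2.11-fold (adjusted p = 0.00119, edgeR). *Pfkfb3*, a regulator of glycolysis, was lower at 30 µg/kg (65.1, 60.4 and 85.7 CPM against 242, 220 and 236 CPM) and was also called at 1 and 3 µg/kg (log2 fold change -1.93 and -1.69), but not at 10 µg/kg (68.8, 204 and 112 CPM, log2 fold change -0.86, adjusted p = 0.128, edgeR). *Pfkfb3* did not follow the order of dose, since all mice at 0.01 µg/kg (156, 91.4 and 81.2 CPM) and at 0.03 to 0.3 µg/kg (62.0 to 133 CPM) were also below the vehicle mice, with log2 fold changes of -1.25 to -1.09 that were not called. *Adm*, adrenomedullin, was repressed 3.57-fold at 30 µg/kg (adjusted p = 0.00396, edgeR). It stood at 15.5, 8.36 and 17.0 CPM in vehicle mice and at 1.86, 5.10 and 4.56 CPM at 30 µg/kg. The mice at 0.01 to 3 µg/kg ranged from 4.28 to 9.85 CPM, and those at 10 µg/kg stood at 3.14, 9.11 and 12.2 CPM. *Adm* too did not follow the order of dose, and it was not called at a lower dose. *Egln3*, an oxygen sensor that hydroxylates HIF subunits, is not among these 10 targets but among the 58 further iron and heme genes. Named here after its values were seen, it was called at 1, 3 and 10 µg/kg (log2 fold change 0.71, 0.72 and 0.70). At 30 µg/kg it reached 0.46 (adjusted p = 0.0477, edgeR), under the fold limit.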
